A study of Mus musculus with 15 samples.

Results

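Brains of Tbx1+/- mice given vitamin B12 were compared with brains of wild-type (WT) mice given phosphate-buffered saline (PBS), which asks how far the treated mutants stand from untreated normal mice. The comparison rests on 10 of the 15 RNA libraries of the series, 5 in each group, chosen by their labels alone. The treated heterozygotes (Het_B12) carried 1 intact and 1 mutant copy of Tbx1 and received 20 mg/kg of the vitamin in PBS. The WT mice (WT_PBS) received PBS only. The labels give the mice as adult and 4 weeks old, without saying at which step, and both groups had 2 injections a week into the abdominal cavity over 4 weeks. A further 5 heterozygotes that received PBS (Het_PBS) are given below as levels beside the compared groups. Genotype and vitamin differ together between Het_B12 and WT_PBS, so their parts in any difference cannot be told apart within this pair, and WT mice given the vitamin were not analysed here. Neither the mutant allele nor the sex of the mice is stated in the sources used here. Reads of Y-linked genes were present in every library, and Xist had 28 reads in Het_PBS 3, 2 in Het_B12 3 and none in the others. The sample labels call the tissue a brain hemisphere and the design text calls it whole brain.

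Tbx1 encodes a T-box transcription factor, best known for its role in the embryonic pharynx, heart and vessels, and lies in the mouse region that matches the human 22q11.2 deletion. In the brain, Tbx1 has been linked to endothelial cells, the cells that line blood vessels and form the blood-brain barrier. Vitamin B12 is the cofactor of methionine synthase, which feeds methyl groups into the methionine cycle, and of methylmalonyl-CoA mutase, which passes propionate-derived carbon into the tricarboxylic acid (TCA) cycle.

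Each library was made by QuantSeq, which counts reads near the 3′ ends of polyadenylated RNA. Totals ran from 1707033 to 2593316 counts in WT_PBS and from 2098847 to 2746122 in Het_B12. At these depths 3 reads correspond to 1.09 to 1.76 CPM (counts scaled to the library total). Levels given below in CPM are also TMM-normalised. Tbx1 itself had 3 reads in WT_PBS 4, 1 in Het_B12 4, 3 in Het_PBS 1 and none in the other libraries, so its own count does not check the genotype labels. The markers of brain tissue were present: summed levels of the astrocyte list were 18034 to 27699 CPM over the 10 libraries, and those of the cortical and hippocampal excitatory neuron list 11686 to 16562 CPM. WT_PBS 3 stood apart from the other WT_PBS libraries. On the first principal component of all 15 libraries, which held 18.05% of the variance, it lay at 17.8, beside the Het_B12 libraries at 19.1 to 32.8, whereas the other WT_PBS libraries lay at -22.1 to -13.7. On the second component (12.07% of the variance) Het_PBS 5 lay at -43.5, and the other libraries at -22.5 to 24.4. Its total was the lowest of the series, 1683258 counts, and all Het_PBS means below include it. An animal number stands on both Het_PBS 5 and Het_B12 1 in the labels. The sources do not state that all libraries are from different mice; the p-values reflect library-to-library spread, which may be partly technical.

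Of 11718 genes with enough counts, 859 differed between Het_B12 and WT_PBS at an adjusted p under 0.05 in edgeR's quasi-likelihood test with Benjamini-Hochberg adjustment, which is 7.33%. In Het_B12, 377 genes were higher (3.22%) and 482 lower (4.11%). These genes are called higher or lower, or said to have risen or fallen, from here on. Most changes were modest. The median log2 fold change, Het_B12 minus WT_PBS, was 0.66 among the higher genes and -0.55 among the lower genes, against 0.01 over all genes tested. Only 69 higher and 49 lower genes passed a 2-fold change. In 630 genes (5.38%) the 5 libraries of 1 group all lay above the 5 of the other, and 411 of these were among the 859. The count depended on single libraries: it was 449 without WT_PBS 5, 477 without WT_PBS 1, 513 without Het_B12 2, 515 without Het_B12 1 and 1268 without WT_PBS 3. No called gene changed sign under any of these.

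**Figure D1:**
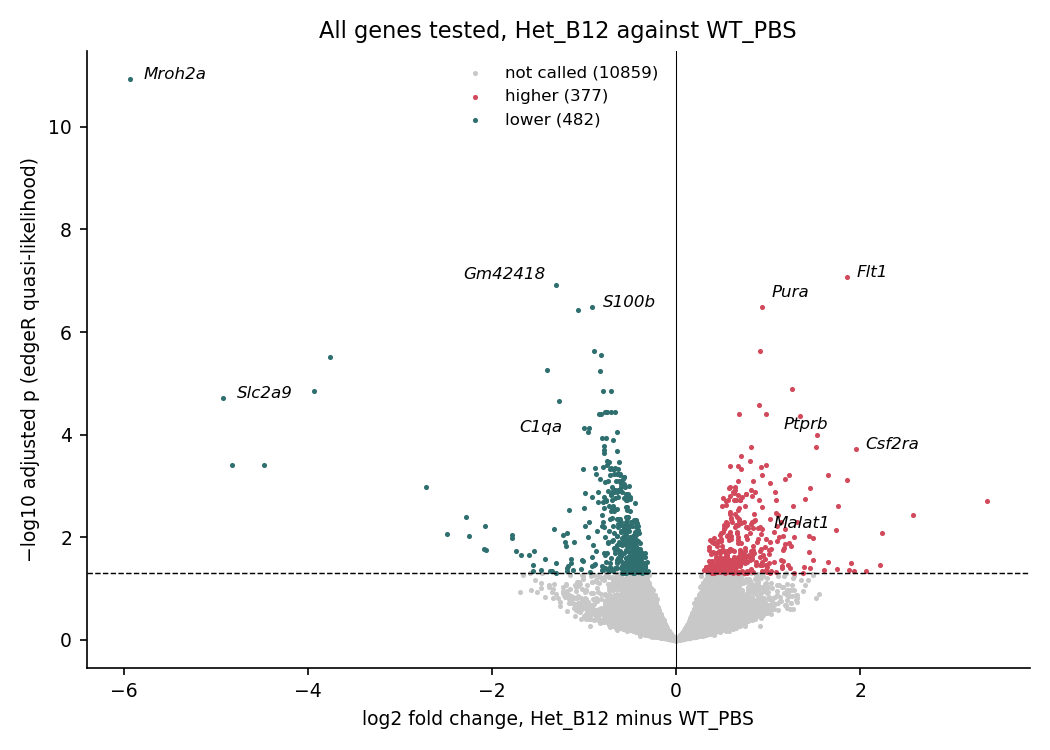
Each point is 1 of the 11718 genes tested; the x axis is the log2 fold change of Het_B12 against WT_PBS and the y axis is -log10 of the adjusted p, with the dashed line at an adjusted p of 0.05. The 377 higher genes are red and the 482 lower genes are teal; Flt1 lies highest on the right, and Mroh2a stands alone at the upper left at a log2 fold change of -5.94.

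The calls among genes of blood vessel endothelium were all upward in the treated heterozygotes. Of 25 endothelial genes tested, 8 rose and none fell, a share of 32.0% against 3.22% of all genes. Their median log2 fold change was 0.63 against 0.01 over all genes. The gene lists here and below were chosen with earlier results of these data known. The share of a list that was called is therefore a description and not an independent test. Flt1, a receptor gene for the vascular endothelial growth factors (GRCm38 chromosome 5, minus strand, 147561604 to 147726011), had the smallest p of all higher genes. Its levels were 21.8, 21.98, 22.8, 18.8 and 13.8 CPM in WT_PBS 1 to 5 and 85.9, 90.3, 66.6, 59.98 and 54.8 CPM in Het_B12 1 to 5. Every treated library lay above every WT library, and above the Het_PBS mean of 25.1 ± 8.60 CPM (SD, n = 5). The log2 fold change was 1.86 ± 0.20 (SE; edgeR adjusted p = 8.38e-08), a 3.62-fold rise. Kdr, the main signalling receptor of the same growth factor family, rose by 1.23 ± 0.32 (edgeR adjusted p = 0.0129).

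Ptprb encodes the vascular endothelial receptor phosphatase VE-PTP. It was measured at 15.6, 6.36, 15.8, 9.17 and 13.4 CPM in WT_PBS 1 to 5 and at 34.1, 35.1, 38.03, 40.1 and 26.9 CPM in Het_B12 1 to 5, again without overlap, with a log2 fold change of 1.52 ± 0.25 (edgeR adjusted p = 0.000174). Slco1a4, an organic anion transporter of the blood-brain barrier, was measured at 14.8, 15.04, 16.95, 19.6 and 9.61 CPM in WT_PBS 1 to 5. In Het_B12 1 to 5 it was at 41.4, 24.7, 30.6, 40.1 and 40.8 CPM (1.22 ± 0.23; edgeR adjusted p = 0.000605). The Het_PBS means of these genes, 11.7 ± 5.24 and 13.6 ± 4.39 CPM (SD, n = 5), were close to those of WT_PBS, 12.1 ± 4.15 and 15.2 ± 3.67 CPM (SD, n = 5). Slc2a1, which encodes the glucose transporter GLUT1 of brain capillaries, rose 1.89-fold, also without overlap: 12.9 to 24.2 CPM in WT_PBS and 25.5 to 41.4 CPM in Het_B12. The other called members were Cldn5, Podxl and Ly6c1. Acvrl1, an endothelial receptor of the TGF-beta family that was not on the list, was among the largest rises (log2 fold change 1.73), with means of 3.64 ± 2.89 and 12.6 ± 1.55 CPM (SD, n = 5).

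Not every vessel gene passed, and 3 of the 25 fold changes were below 0. The lowest was that of Emcn, a sialomucin of endothelium, at -1.66 ± 0.55 (edgeR adjusted p = 0.0555), with 51 reads over the WT_PBS libraries and 20 over the Het_B12 libraries. Pecam1, a general endothelial marker, had a log2 fold change of 1.04 ± 0.52 (edgeR adjusted p = 0.235), with 0.836 to 10.99 CPM in WT_PBS and 5.93 to 12.2 CPM in Het_B12. Tek, Tie1, Cdh5, Ocln and Sox17 had too few reads to be tested. None of 8 genes of pericytes and smooth muscle, the cells wrapped around vessels, passed (median 0.28), against 7.33% of all genes. At that share so few genes may hold no call, so the absence does not set them apart from other genes. Of 17 listed only these 8 were tested, and Acta2, Tagln, Myh11 and Kcnj8 were among those left out. The mean level of the endothelial list was 0.30 to 0.81 above the WT_PBS mean (log2) in Het_B12, -0.20 to 0.14 in WT_PBS with WT_PBS 3 at 0.14, and -0.12 to 0.16 in Het_PBS. Without Het_B12 1, the library with the highest Podxl, 5 endothelial genes were called, and 3 when only genes with a mean count of at least 50 were tested. Without WT_PBS 4, 1 endothelial gene was called lower. In whole tissue, a different number of cells of a type and a different amount of RNA per cell cannot be told apart.

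**Figure D2:**
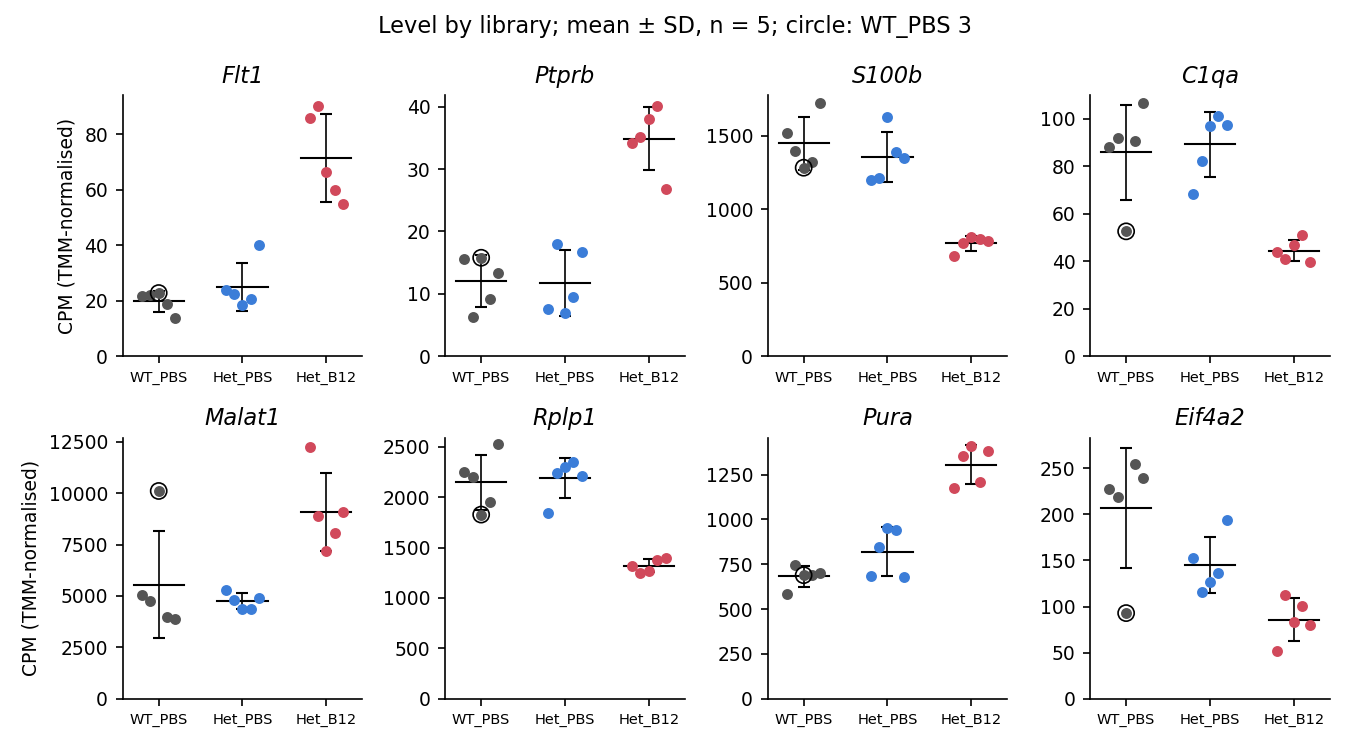
Levels of 8 genes in the 15 libraries, in TMM-normalised CPM on linear axes that start at 0; points are libraries, horizontal lines are group means and error bars are SD (n = 5), and the circle marks WT_PBS 3. Flt1, Ptprb, Pura, S100b and Rplp1 separate Het_B12 from all WT_PBS libraries, while for Malat1 and Eif4a2 WT_PBS 3 lies among the Het_B12 libraries.

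Astrocyte genes were lower. Astrocytes are the glia that clear glutamate and potassium and contact vessels with their endfeet. Of 28 tested, 11 fell and none rose, against 4.11% of all genes, with a median of -0.28 and 26 of 28 below 0. S100b, a calcium-binding protein abundant in astrocytes (chromosome 10, 76253853 to 76261159, plus strand), was measured at 1518, 1396, 1283, 1322 and 1724 CPM in WT_PBS 1 to 5 and at 681, 771, 812, 798 and 786 CPM in Het_B12 1 to 5. The groups did not overlap, WT_PBS 3 included, and Het_PBS was at 1357 ± 173 CPM (SD, n = 5). S100b was 1.88-fold lower (log2 fold change -0.91 ± 0.10; edgeR adjusted p = 3.3e-07). Gjb6, the gap junction protein connexin 30, fell 1.77-fold from 104 ± 29.0 to 59.0 ± 8.63 CPM (SD, n = 5; edgeR adjusted p = 0.000725). Slc1a2, the main astrocytic glutamate transporter, fell 1.36-fold; its levels were 2153 to 3175 CPM in WT_PBS and 1839 to 2232 CPM in Het_B12, and the groups overlapped through WT_PBS 3. Ndrg2 and Clu fell 1.45-fold and 1.35-fold. Without WT_PBS 5, 7 astrocyte genes were called lower.

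Genes of microglia, the resident macrophages of the brain, were lower in 7 of 24 tested cases (29.2%, against 4.11% of all genes). None was higher (median -0.51). C1qa, a chain of the complement protein C1q (chromosome 4, 136895917 to 136898803, minus strand), was measured at 88.3, 92.0, 52.6, 90.5 and 107 CPM in WT_PBS 1 to 5. In Het_B12 1 to 5 it was at 44.1, 40.8, 46.9, 50.8 and 39.8 CPM, with WT_PBS 3 the closest WT library. The fall was 1.94-fold (-0.96 ± 0.15; edgeR adjusted p = 9.02e-05), and Het_PBS was at 89.2 ± 13.8 CPM (SD, n = 5). Cx3cr1, the receptor by which microglia sense the neuronal chemokine fractalkine, fell 1.56-fold from 165 ± 24.1 to 106 ± 10.9 CPM (SD, n = 5). Ctss, a lysosomal cysteine protease, fell 1.69-fold. Trem2, a lipid-sensing receptor, and Aif1, the calcium-binding protein IBA1, had log2 fold changes of -1.14 and -1.11. Csf1r and Fcrls were the other members that fell.

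Genes of cells at the brain's borders were also lower. In the meningeal and fibroblast list 7 of 18 fell (38.9%, against 4.11% of all genes) and none rose (median -0.45). Col1a1 and Col1a2, the chains of type I collagen, were 2.51-fold and 1.99-fold lower. Ptgds, the prostaglandin D synthase secreted by the meninges, was measured at 2524, 2732, 1794, 2609 and 4224 CPM in WT_PBS 1 to 5 and at 1728, 1772, 2182, 1516 and 1893 CPM in Het_B12 1 to 5. WT_PBS 3 lay within the Het_B12 range and the other WT libraries above it. Col1a1 was also low in Het_PBS, at 14.5 ± 7.90 CPM beside 30.6 ± 15.5 in WT_PBS and 12.3 ± 3.86 in Het_B12 (SD, n = 5). Without WT_PBS 5, 4 members were called, and 4 with a mean count of at least 50. Of 6 leukocyte genes with enough reads, S100a8 and S100a9, a pair of calcium-binding proteins of neutrophils, were lower. S100a8 had 17 reads over the 5 Het_B12 libraries and 83 over the 5 WT_PBS libraries, a ratio of 5.52 (95% interval 3.25 to 9.93, for counting error only), with no read in WT_PBS 3. The call for S100a8 was lost without WT_PBS 1 and with limma-voom, and that for S100a9 without WT_PBS 5 or Het_B12 1. None of 14 choroid plexus genes and none of 8 ependymal genes passed, although all 8 ependymal fold changes were below 0 (median -0.61).

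Lists of myelin and of neuron types held calls in both directions, against 3.22% higher and 4.11% lower over all genes. Among 30 oligodendrocyte and myelin genes 3 fell, namely Ermn, Mobp and Bcas1, and 1 rose, the small heat shock protein gene Cryab (median -0.11). Without WT_PBS 5, 1 of them was called lower, and without WT_PBS 3 the number was 5. Of 15 genes of oligodendrocyte precursors, Ptprz1 fell by 0.41 ± 0.10 on the log2 scale. No gene of 15 from thalamus and midbrain and 1 of 24 from cerebellum (Pvalb, -0.43) passed, and the Pvalb call was lost in 6 of the settings that leave out 1 library. Among 28 genes of cortical and hippocampal excitatory neurons, Hpca and Neurod2 rose and Nrn1 and Ncald fell (median -0.03). The calls of Nrn1 and Ncald were both lost without Het_B12 1, and that of Nrn1 also without WT_PBS 1, WT_PBS 2, WT_PBS 4 or Het_B12 2. Hpca, a calcium sensor abundant in hippocampus, was higher by 1.81-fold, at 337 to 776 CPM in WT_PBS and 675 to 1037 CPM in Het_B12. In the striatal list 4 of 22 rose (18.2%, against 3.22% of all genes), namely Drd2, Pde10a, Adcy5 and Penk (median 0.23). Pde10a, a cyclic nucleotide phosphodiesterase of medium spiny neurons, rose 1.75-fold from 52.1 ± 16.7 to 91.8 ± 13.6 CPM (SD, n = 5). The striatal count was 1 without WT_PBS 1, WT_PBS 5 or Het_B12 3, 2 without Het_B12 2 and 7 without WT_PBS 3.

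Among the higher genes with the smallest p-values were Pura and Cacng2. Pura, a single-stranded nucleic acid binding protein needed for neuronal development, was measured at 586, 749, 690, 691 and 700 CPM in WT_PBS 1 to 5 and at 1175, 1354, 1410, 1209 and 1385 CPM in Het_B12 1 to 5. The groups were far apart, with a log2 fold change of 0.94 ± 0.11 (edgeR adjusted p = 3.32e-07), and Het_PBS lay between them at 821 ± 134 CPM (SD, n = 5). Cacng2 encodes stargazin, an auxiliary subunit of AMPA-type glutamate receptors. Its levels were 134, 172, 132, 170 and 186 CPM in WT_PBS 1 to 5 and 305, 336, 314, 256 and 283 CPM in Het_B12 1 to 5 (0.91 ± 0.12; edgeR adjusted p = 2.33e-06). Spock2, a brain proteoglycan gene, rose from 290 ± 40.1 to 465 ± 12.2 CPM (SD, n = 5).

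Of 30 genes for glutamate receptors and their auxiliary subunits, Cacng2, the kainate receptor gene Grik5 and the delta receptor gene Grid1 rose and none fell. The share that rose was 10%, against 3.22% of all genes. The fold changes of 27 of the 30 were above 0 (median 0.18). Without WT_PBS 3 or WT_PBS 4 the number called was 5, and the lowest number without 1 library was 2. The Grid1 call was lost without WT_PBS 2, WT_PBS 5, Het_B12 1 or Het_B12 5. Of these 3 the Grik5 fold change was the largest, 1.02 on the log2 scale (22.9 ± 7.41 and 47.1 ± 8.63 CPM; SD, n = 5). Of 44 ion channel genes 7 rose (15.9%, against 3.22% of all genes) and 1 fell (median 0.15). The neuronal calcium channel genes Cacna1a and Cacna1b rose by 0.65 ± 0.14 and 0.66 ± 0.16, and the sodium channel gene Scn8a by 0.50 ± 0.11. Cacna2d1, an auxiliary calcium channel subunit, was the member that fell (-0.38). Without WT_PBS 1, Het_B12 2, Het_B12 3 or Het_B12 5 the number of higher channel genes was 4. Of 24 GABA genes Slc32a1, the vesicular GABA transporter, Gabbr2 and Gad2 rose and 2 fell, among them the transporter gene Slc6a11 (median -0.03). For Slc32a1 the means were 79.9 ± 9.93 CPM (WT_PBS), 96.1 ± 7.31 CPM (Het_PBS) and 127 ± 9.82 CPM (Het_B12; SD, n = 5). Of 36 postsynaptic genes 3 rose and 1 fell (median 0.03), and the 3 became 0 without WT_PBS 5 and 1 without WT_PBS 1 or Het_B12 1. Of 30 presynaptic genes 5 rose and 1 fell (median 0.15), but the number of rises was 1 without WT_PBS 1, WT_PBS 5, Het_B12 1, Het_B12 2 or Het_B12 3, 2 without WT_PBS 2 or Het_PBS 4, and 3 without WT_PBS 4 or Het_B12 5.

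**Figure D3:**
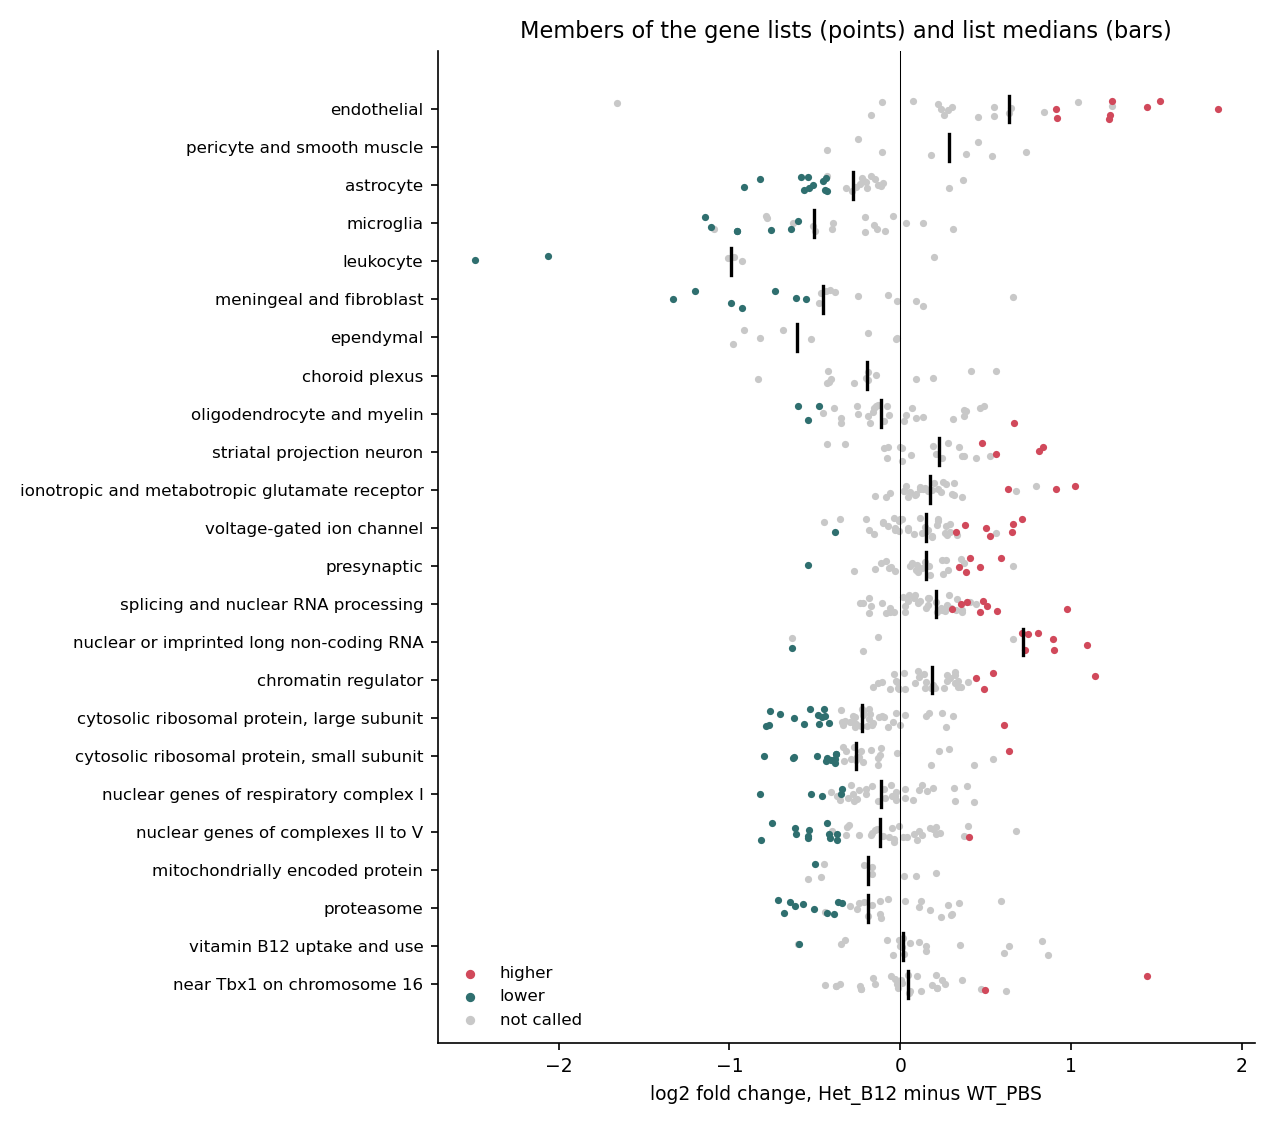
Log2 fold changes of Het_B12 against WT_PBS for the tested members of 24 gene lists; each point is a gene (red higher, teal lower, grey not called), black bars are list medians and the vertical position within a row is arbitrary. The endothelial and long non-coding RNA bars lie farthest to the right (0.63 and 0.72), and the leukocyte, ependymal and microglia bars farthest to the left (-0.99, -0.61 and -0.51).

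Long non-coding RNAs that stay in the nucleus or come from imprinted loci were higher. Of 12 tested 7 rose (58.3%, against 3.22% of all genes) and 1 fell (median 0.72). Kcnq1ot1, the antisense transcript of the imprinted Kcnq1 domain (chromosome 7, 143203458 to 143296549, minus strand), was measured at 192, 204, 356, 177 and 214 CPM in WT_PBS 1 to 5 and at 487, 420, 379, 407 and 433 CPM in Het_B12 1 to 5. The groups did not overlap, and WT_PBS 3 was the WT library nearest to the treated ones. The log2 fold change was 0.90 ± 0.13 (edgeR adjusted p = 2.68e-05), and Het_PBS was at 206 ± 17.3 CPM (SD, n = 5). Malat1, an abundant RNA of nuclear speckles, was measured at 5055, 4761, 10106, 3961 and 3862 CPM in WT_PBS 1 to 5 and at 12224, 8874, 7165, 8056 and 9064 CPM in Het_B12 1 to 5. WT_PBS 3 exceeded 4 of the 5 treated libraries. Neat1, Meg3, Miat, Snhg11 and Mir124a-1hg also rose, and WT_PBS 3 was the highest WT library for each. Pantr1 fell. The number of rises was 3 without WT_PBS 5, 4 without Het_B12 1 and 2 with DESeq2. Malat1 was among the calls lost with DESeq2 (DESeq2 adjusted p = 0.0860).

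Among splicing and RNA-processing factors the calls were all upward. Of 47 tested 8 were higher (17.0%, against 3.22% of all genes) and none lower (median 0.21). Snrnp70, a protein of the U1 spliceosomal particle, rose 1.96-fold; WT_PBS 3, at 214 CPM, lay among the treated libraries at 174 to 286 CPM, and the other WT libraries were at 85.5 to 110 CPM. Son and Srrm2, scaffolds of nuclear speckles, rose by 0.39 ± 0.10 and 0.57 ± 0.12. The number of higher splicing genes was 17 without WT_PBS 3, 3 without WT_PBS 1, 4 without WT_PBS 5 or Het_B12 1 and 5 without WT_PBS 2, WT_PBS 4 or Het_B12 5. Of 36 chromatin regulators 4 rose (11.1%) and none fell (median 0.19). Among those that rose were the histone methyltransferase genes Kmt2a and Kmt2b and the remodeller gene Chd7. Kmt2b rose from 10.5 ± 2.68 to 23.3 ± 7.64 CPM (SD, n = 5). Without WT_PBS 3, 8 chromatin regulators were called higher. The Chd7 call was lost in 11 of 27 alternatives, the offset for transcript length and 8 of the 10 settings without a library of the compared groups among them. None of 16 DNA methylation genes passed (median 0.22).

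The calls among ribosomal protein genes were mostly downward, against 4.11% lower over all genes. Of 48 large-subunit ribosomal protein genes 13 fell and Rpl7a rose (median -0.23). Of 33 small-subunit genes 11 fell and 1 rose (median -0.26). Rplp1, an acidic stalk protein of the large subunit (chromosome 9, 61913284 to 61914542, minus strand), was measured at 2244, 2197, 1827, 1949 and 2523 CPM in WT_PBS 1 to 5 and at 1313, 1250, 1263, 1372 and 1398 CPM in Het_B12 1 to 5. The groups did not overlap, and Het_PBS was at 2187 ± 198 CPM (SD, n = 5). Rplp1 fell 1.63-fold (-0.70 ± 0.10; edgeR adjusted p = 1.42e-05), Rpl26 fell 1.69-fold and Rps14 fell 1.74-fold. The groups overlapped in the mean level of these lists (log2, relative to the WT_PBS mean). For the small subunit it was -0.34 to -0.06 in Het_B12, and WT_PBS 3 and WT_PBS 4, at -0.25 and -0.26, lay below 4 of the 5 treated libraries. For the large subunit it was -0.38 to -0.10 in Het_B12, with WT_PBS 3 at -0.27 and WT_PBS 4 at -0.18. Ribosomal protein genes have many near-identical pseudogenes, so single counts are uncertain. Without WT_PBS 5, 8 large-subunit genes were called lower. The small-subunit number was 5 without WT_PBS 5, 6 without WT_PBS 2, and 7 without WT_PBS 1, Het_B12 1 or Het_B12 2.

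Among 39 translation factors 6 fell (15.4%, against 4.11% of all genes) and 2 rose (median -0.08). Without Het_B12 1 the number lower was 2, and without Het_B12 2 it was 3. Eif4a2, an RNA helicase of translation initiation (chromosome 16, 23107444 to 23114136, plus strand), fell 2.42-fold. It was measured at 228, 219, 92.9, 255 and 239 CPM in WT_PBS 1 to 5 and at 51.4, 113, 83.2, 100.9 and 79.5 CPM in Het_B12 1 to 5. WT_PBS 3 lay within the treated range, and Het_PBS was between the groups at 145 ± 30.7 CPM (SD, n = 5). Eif2s2, a subunit of the factor that delivers the initiator tRNA, fell 1.63-fold without overlap, from 510 to 774 CPM in WT_PBS to 374 to 443 CPM in Het_B12. Proteasome genes fell in 10 of 31 cases (32.3%) and rose in none (median -0.19). The number was 6 without WT_PBS 4, WT_PBS 5, Het_B12 1 or Het_B12 2. Psma4, a subunit of the catalytic core, fell 1.64-fold and Psmc1, an ATPase of the cap, 1.48-fold.

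Some nuclear genes of oxidative phosphorylation were lower. Of 42 genes of complexes II to V 12 fell (28.6%, against 4.11% of all genes) and Atp5b rose (median -0.12). Of 36 genes of complex I 5 fell (13.9%) and none rose (median -0.11). Atp5k, a small subunit of ATP synthase, was measured at 853, 864, 662, 766 and 796 CPM in WT_PBS 1 to 5 and at 438, 370, 478, 463 and 490 CPM in Het_B12 1 to 5 (-0.82 ± 0.10; edgeR adjusted p = 2.81e-06). Every treated library lay below every WT library. Ndufa2 of complex I and Uqcrh of complex III fell 1.77-fold and 1.68-fold. The mean levels of both lists overlapped between the groups. For complexes II to V they were -0.25 to -0.0021 in Het_B12, with WT_PBS 3 at -0.24 and WT_PBS 4 at -0.17, and for complex I -0.25 to 0.02, with WT_PBS 3 at -0.17 and WT_PBS 4 at -0.12. The complex I number was 11 without WT_PBS 3 and 3 without WT_PBS 1, WT_PBS 2, WT_PBS 5, Het_B12 1, Het_B12 2 or Het_B12 4. Of 10 protein genes of the mitochondrial genome, mt-Co1 fell 1.42-fold (median -0.19). The share of all counts from mitochondrially encoded genes averaged 7.29 ± 1.32% for WT_PBS, 8.47 ± 0.688% for Het_B12 and 9.75 ± 1.33% for Het_PBS (SD, n = 5). The difference between the first pair did not pass an exact two-sided permutation test (p = 0.111; 0.148 adjusted over 4 such measures), whose smallest possible p is 0.00794. Without WT_PBS 2 the exact permutation p was 0.0159. The share sums raw counts, whereas the list median weighs each gene alike and uses TMM-normalised levels, so their directions can differ. The TMM factors were 0.932 to 1.01 in WT_PBS and 1.05 to 1.08 in Het_B12.

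The lists of the vitamin's own pathways held calls in 1 of 20, 1 of 26 and 2 of 32 genes, against 7.33% of all genes. Of the 20 genes of B12 uptake and use, 1 passed: Prdx1, a peroxiredoxin gene that neighbours the B12 processing gene Mmachc and is on the list for that reason, fell by 0.60 ± 0.14 on the log2 scale (184 ± 48.9 and 121 ± 12.3 CPM; SD, n = 5). Mmachc was at 6.21 ± 1.74 and 5.99 ± 1.64 CPM (SD, n = 5). Cd320, the receptor for B12-loaded transcobalamin, was at 13.9 ± 3.20 and 14.1 ± 2.13 CPM (SD, n = 5). Mtr, which encodes methionine synthase, was at 11.2 ± 4.08 CPM in WT_PBS and 11.2 ± 2.15 CPM in Het_B12 (SD, n = 5), a log2 fold change of 0.02 ± 0.27. That standard error leaves a modest difference undetectable at these depths. Of the 23 symbols listed, Lrp2, Cubn and Mmut, the last a symbol of methylmalonyl-CoA mutase, matched no tested gene. No value under that symbol is therefore given for the mutase. Of the 26 folate and methionine cycle genes, Gcsh of the glycine cleavage system fell (-0.61 ± 0.16), and the call was lost without WT_PBS 5. Of the 32 genes of propionate, branched-chain and fatty acid breakdown, Etfb and Acads fell. Etfb, the electron transfer flavoprotein beta subunit, was at 87.5 to 104 CPM in WT_PBS and 47.7 to 73.5 CPM in Het_B12 (edgeR adjusted p = 0.000198).

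The calls among central energy genes were few and went both ways, against 3.22% higher and 4.11% lower over all genes. Of 28 genes of the TCA cycle and malate-aspartate shuttle, the aspartate-glutamate carrier gene Slc25a12 and the isocitrate dehydrogenase gene Idh3b rose, and Mpc1, Mdh2, Pdha1 and Sdhb fell (median -0.07). The number of falls was 0 without WT_PBS 4 or Het_B12 1, 1 without WT_PBS 5 or Het_B12 2, and 2 without Het_B12 3 or Het_B12 4. Slc25a12 rose 1.75-fold from 87.9 ± 21.1 to 153 ± 19.2 CPM (SD, n = 5). Of 21 glycolysis and lactate genes, Slc2a1 and Gapdh rose and the monocarboxylate transporter gene Slc16a1 fell; the Gapdh call was lost with DESeq2. Of 36 glutathione and antioxidant genes 4 fell and none rose, Glrx3, Gstm5, Prdx1 and Prdx6 (median -0.09). Metallothioneins, which bind zinc and copper, fell in 2 of 3 tested, with Mt1 at 829 to 1372 CPM in WT_PBS and 744 to 826 CPM in Het_B12. The 21 circadian clock genes and 14 glucocorticoid-responsive genes held none that passed.

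In the lists that remain the calls went both ways or were few, against 3.22% higher and 4.11% lower over all genes. Of 74 mitochondrial ribosomal protein genes 3 fell and Mrps21 rose (median -0.11), and the number of falls was 6 without WT_PBS 3 and 1 without WT_PBS 1, WT_PBS 5, Het_B12 4 or Het_B12 5. Of 30 lysosomal genes 3 fell, among them the cathepsin gene Ctsd, and 2 rose (median -0.07). Of 33 chaperone genes 3 fell, including Hsp90aa1, and Cryab rose (median -0.06); the number of falls was 5 without WT_PBS 3. Of 31 cholesterol and fatty acid synthesis genes Srebf1 and Elovl6 rose and the desaturase gene Scd1 fell (median -0.12). The calls of Srebf1 and Elovl6 were lost without WT_PBS 1, WT_PBS 5, Het_B12 1 or Het_B12 3, and that of Srebf1 also without WT_PBS 2, WT_PBS 4 or Het_B12 2 and with limma-voom. Of 22 interneuron and neuropeptide genes 4 rose, among them Reln, an extracellular matrix protein that guides neuronal layering, and 2 fell (median 0.18). Of 19 genes of glutamate metabolism the transporter gene Slc38a1 rose and the astrocytic Slc1a2 and Slc1a3 fell (median 0.05). Egr3 fell among 22 immediate early genes (not without WT_PBS 1 or Het_B12 5), Slc2a1 rose among 20 hypoxia genes, and none of 10 erythroid genes passed. Of 4 Y-linked genes Ddx3y was lower (-0.41 ± 0.13), a call lost in 7 of the 10 settings that leave out a library of the compared groups. 

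Beyond the lists, the largest rises among genes of at least 10 CPM in the higher group were Csf2ra, Flt1, Sema5b and Adamts10. Csf2ra, the alpha chain of the receptor for granulocyte-macrophage colony-stimulating factor, was measured at 6.16, 18.5, 8.18, 5.84 and 3.76 CPM in WT_PBS 1 to 5 and at 48.2, 29.7, 28.5, 21.1 and 31.4 CPM in Het_B12 1 to 5 (1.95 ± 0.33; edgeR adjusted p = 0.000193). The groups did not overlap. Sema5b, a membrane-bound axon guidance protein, rose from 4.66 ± 2.47 to 16.8 ± 5.51 CPM with Het_PBS between them at 9.25 ± 3.37 (SD, n = 5). Among the lower genes, Sub1, a transcriptional coactivator, fell 2.10-fold and Cetn3, a centrosomal calcium-binding protein, 1.86-fold, both without overlap.

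The deepest falls were in genes with almost no reads in Het_B12. Mroh2a, a HEAT-repeat protein gene (chromosome 1, 88226986 to 88262289, plus strand), had 128, 56, 137, 86 and 117 reads in WT_PBS 1 to 5 and 9, 0, 0, 0 and 1 in Het_B12 1 to 5. Its summed reads per total count were 59.3-fold fewer in Het_B12 (95% interval 32.0 to 124, for counting error only; edgeR adjusted p = 1.16e-11). Het_PBS was in between, with 36 to 81 reads per library. Slc2a9, a urate transporter gene, had 4 reads over the 5 Het_B12 libraries and 114 over the 5 WT_PBS libraries, a ratio of 32.2 (12.2 to 120). Sensory receptor genes (olfactory, vomeronasal and trace amine), of which 352 had a read, summed to 107 ± 35.2 CPM in WT_PBS and 17.6 ± 6.32 CPM in Het_B12 (SD, n = 5), 6.09-fold lower. The groups did not overlap (exact two-sided permutation p = 0.00794, the smallest possible; 0.0159 adjusted over 4 measures), and Het_PBS was at 84.3 ± 18 CPM (SD, n = 5). Gm42418, a predicted gene that lies over ribosomal RNA sequence, took 10.6 to 14.9% of all counts in WT_PBS, 6.47 to 10.3% in Het_PBS and 3.31 to 6.28% in Het_B12 (WT_PBS against Het_B12: exact two-sided permutation p = 0.00794). The part of these sequences in the differences of other genes was not tested. With Gm42418 and the mitochondrial genes left out before scaling, 850 genes were called.

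**Figure D4:**
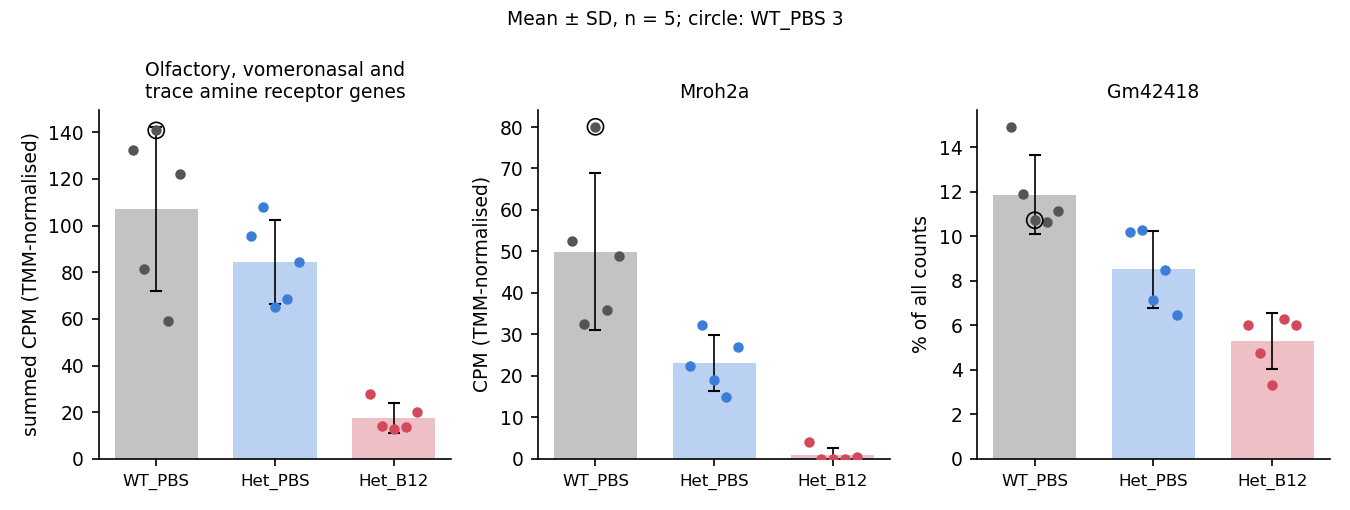
Summed CPM of the sensory receptor genes, CPM of Mroh2a and the percentage of all counts in Gm42418, by group; bars are means, error bars SD (n = 5), points libraries and the circle marks WT_PBS 3. In each panel every Het_B12 library lies below every WT_PBS library, and the Het_PBS mean lies between those of the other groups.

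Near Tbx1 on chromosome 16, 2 of 31 tested genes passed, both higher in Het_B12 (median 0.05). That is 6.45%, against 3.22% higher over all genes. Cldn5, the tight junction protein claudin 5 of brain endothelium (18776847 to 18778262, plus strand), was measured at 2.46, 4.63, 9.35, 4.17 and 4.18 CPM in WT_PBS 1 to 5 and at 15.5, 14.7, 15.3, 11.9 and 8.72 CPM in Het_B12 1 to 5. The treated library Het_B12 5 lay below WT_PBS 3. The log2 fold change was 1.44 ± 0.36 (edgeR adjusted p = 0.00948), and Het_PBS was at 5.01 ± 1.83 CPM (SD, n = 5). Lztr1, an adaptor of a ubiquitin ligase, was higher by 0.50 ± 0.15, but the call was lost in 5 of the settings that leave out a library of the compared groups.

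WT_PBS 3 was compared with the treated group list by list. For 859 called genes, WT_PBS 3 reached or passed the nearest Het_B12 library in 293 (34.1%), and the other WT_PBS libraries in 33 to 121. Of 50 gene lists, 14 had all Het_B12 mean levels apart from those of the other 4 WT_PBS libraries. In 11 of these 14 WT_PBS 3 was inside or past the Het_B12 range, among them astrocyte, microglia, leukocyte, meningeal, splicing and long non-coding RNA genes. For microglia it was at -0.59 beside -0.70 to -0.22 in Het_B12 and -0.03 to 0.26 in the other WT_PBS libraries. In the other 3 lists, endothelial, proteasome and glutamate receptor genes, it was outside the Het_B12 range. Its receptor genes, at 141 CPM, were the highest of all WT_PBS libraries. Transcript length moved with the comparison as well: with the genes ranked by length into 5 sets of 2343, the median log2 fold change was -0.05 in the shortest set and 0.04 in the longest, and 6.87% and 2.39% of their genes were lower in Het_B12. The part of WT_PBS 3 and of transcript length in the differences was not tested.

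**Figure D5:**
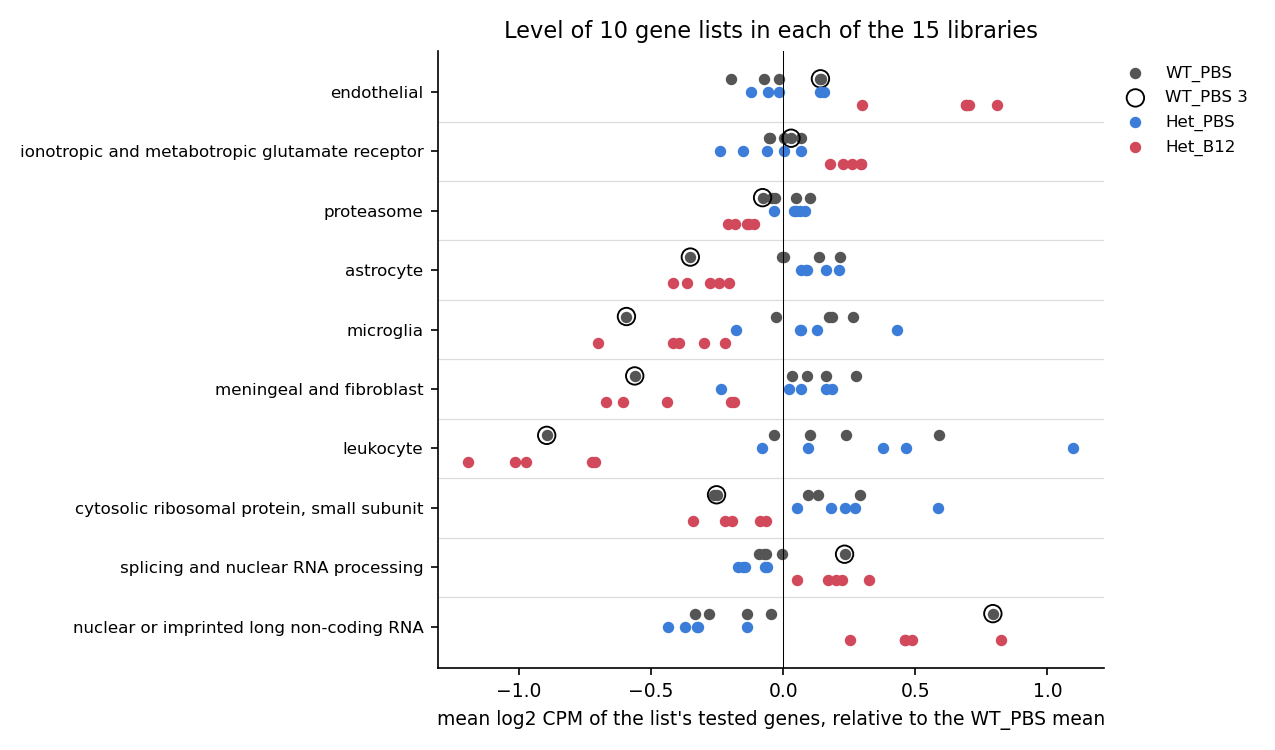
Mean log2 CPM of the tested members of 10 gene lists in each of the 15 libraries, relative to the WT_PBS mean at 0 (grey WT_PBS, blue Het_PBS, red Het_B12; the black circle is WT_PBS 3). In the endothelial and glutamate receptor rows WT_PBS 3 is with the other WT_PBS libraries, in the proteasome row it lies between the groups, and in the astrocyte, microglia, meningeal, leukocyte, splicing and long non-coding RNA rows it is with the Het_B12 libraries.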

How the data were processed

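The data are QuantSeq 3′ RNA-seq counts from mouse brain, with groups taken from the sample titles. The authors deposited raw read counts per gene and library in 1 table of whole numbers for 30386 identifiers. STAR, HTSeq and edgeR are named as tools and mm10 as build, per the submitters' processing notes; no source used here gives their versions, the annotation or the strand setting. Coordinates are those of GENCODE M21 on GRCm38, the assembly mm10 names, which matched 30348 identifiers (99.87%). Without a strand setting, genes that overlap another cannot be separated from it; among those named this holds for Nrn1, Gapdh, Idh3b, Srrm2, Srebf1, Csf1r and Gstm5, whose neighbours had over 10% as many reads.

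Counts were fitted in R 4.3.3 with edgeR 4.0.16: filterByExpr, TMM factors, 1 quasi-likelihood model of all 15 libraries with 1 mean per group, 12 residual degrees of freedom, and Benjamini-Hochberg adjustment over 11718 genes. CPM are TMM-normalised. The steps were tested on simulated data with known changes. Replicates differed by more than sampling noise (chi-square per degree of freedom of 3.14 or more), so all libraries were kept. The pair with a shared animal number differed by 11.3. That pair lies across Het_PBS and Het_B12, and no other pair across these groups was compared. The value therefore cannot show whether the mouse is the same. Alternatives were RLE factors, no filter, a minimum mean count of 50, DESeq2 1.42.0, limma 3.58.1 (voom, with and without quality weights), only the compared groups, the replicate number as a block, Gm42418 and mitochondrial genes left out, an offset for transcript length, thinning to 1683258 counts, and each library left out in turn. Leaving out WT_PBS 3 and Het_PBS 5 together was added after seeing the data.

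Intervals and floors cover counting error only. The comparison, the 50 gene lists and the tests were chosen with earlier results of these data known. Named are the 10 largest rises and falls among called genes of at least 10 CPM in the higher group, the 8 smallest p-values in each direction, up to 4 called members of each list, and called genes near Tbx1 and of vitamin B12 use; predicted genes and some others of these are summarised, and a few are not reported here. Members named to complete a list (Kdr, Podxl, Ly6c1, Trem2, Aif1, Fcrls, Neat1, Meg3, Miat, Snhg11, Cacna2d1, Slc6a11, Atp5b, Rpl7a, Pdha1, Sdhb) and Emcn, Pecam1, Mmachc, Cd320 and Mtr were chosen after their values were seen.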

Additional observations from a re-analysis of the deposited data

Results flagged for a closer look

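Single libraries far from the other 4 of their group, by Dixon's test at the 95% level, were looked for in 250 sets of 5 values (121 genes of the text and 4 shares or sums, in both groups). For independent sets chosen blind, chance alone flags about 1 in 20. The sets here share libraries, and some genes were chosen after their values were seen, so that rate is no yardstick for them. In all, 22 were flagged. WT_PBS 3 was the library in 11 of them.

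WT_PBS 3 was above the other WT_PBS libraries for Malat1 (10106 CPM, the others 3862 to 5055), Kcnq1ot1 (356, the others 177 to 214), Meg3 (11653, the others 2921 to 5112), Miat (138, the others 15.04 to 43.9), Snhg11 (2844, the others 603 to 967), Mir124a-1hg (81.8, the others 27.2 to 40.2), Snrnp70 (214, the others 85.5 to 110) and Podxl (11.1, the others 3.47 to 5.00). It was below them for Eif4a2 (92.9, the others 219 to 255), Psma4 (99.9, the others 156 to 165) and Uqcrh (433, the others 655 to 688). For 9 of these 11 genes (not Kcnq1ot1 and Uqcrh) its value reached or passed that of the nearest Het_B12 library.

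Among the other WT_PBS libraries, WT_PBS 4 was high for Acvrl1 (8.76 CPM, the others 1.74 to 2.87) and low for Emcn (0.834 CPM, the others 5.26 to 6.94). WT_PBS 2 had a mitochondrially encoded share of 9.58% (the others 6.32 to 7.06%). Among the treated libraries, Het_B12 4 was high for Etfb (73.5 CPM, the others 47.7 to 53.0) and Ctsd (347, the others 257 to 271). Het_B12 2 was high for Srebf1 (14.7, the others 3.18 to 6.45) and Rpl7a (99.2, the others 47.3 to 58.7). Het_B12 5 was low for Pecam1 (5.93, the others 10.7 to 12.2) and high for Gcsh (54.4, the others 34.6 to 37.3). Het_B12 1 was low for Uqcrh (313, the others 377 to 399) and high for Mroh2a (4.09, the others 0 to 0.349), where it held 9 of the 10 reads of its group.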

How the results depend on the processing

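The number of genes called in Het_B12 against WT_PBS, 859 with 377 higher and 482 lower, lay between 677 (libraries thinned to the smallest total) and 1115 (limma-voom with quality weights) under the alternatives that kept all libraries of the compared groups; DESeq2 gave 993. With the replicate number as a block it was 800. Libraries with the same replicate number showed little shared deviation (correlations of -0.09 to 0.11). So few pairs cannot exclude a pairing of the samples. Leaving out each library in turn gave 449 to 1268 calls, 177 to 608 higher and 272 to 660 lower. With WT_PBS 3 and Het_PBS 5 both left out, chosen after seeing the data, the numbers were 1390, 645 and 745. No gene of the 859 changed sign in any of these fits; the cause of the moves was not tested. Of 152 genes that the naming rule took, 106 were called under all 27 alternatives and 46 were lost in 1 or more, 42 of them in a fit without 1 library. An offset for transcript length lost 6 of the 152, and leaving out WT_PBS 3 lost 2. With that offset 791 genes were called, 289 higher and 502 lower. It left 2 presynaptic and 5 splicing genes called higher and 3 complex I genes called lower. The 8 endothelial rises and 10 proteasome falls kept their numbers. The fall in the share of counts in Gm42418 was 5.82 to 6.89 percentage points, and the fall in the summed sensory receptor genes 81.3 to 101.7 CPM, without each library. The share of counts in mitochondrially encoded genes differed by 1.18 percentage points, by 0.939 to 1.76 without each library, and passed the exact permutation test only without WT_PBS 2 (1.76; p = 0.0159).

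Depth limits what can be said of weakly expressed genes such as those of vitamin B12 use, where the standard error of Mmachc was 0.37 and that of Mtr 0.27 on the log2 scale.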
